A study of Mus musculus with 10 samples.

Results

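Collagen chain genes encode the alpha chains from which every collagen molecule is assembled. They were taken as all genes whose symbol is Col, a number, the letter a and a number. Of 44 such genes in the RefSeq gene table, 42 were measured, out of 18193 genes with at least 1 probe set of a single gene symbol; Col28a1 and Col6a6 were not analysed here. The 42 genes had 82 single-symbol probe sets, and the probe set with the highest mean log2 signal over the 10 arrays stood for its gene. The RNA came from embryonic fibroblasts of the mouse, hybridised to Affymetrix arrays, in 2 lines: a line labelled hsp70 (-/-) or knockout, called KO-labelled below, and a line labelled (+/+) or rescue, called rescue-labelled below. Preshocked cells had been heated at 43 °C for 30 minutes, 20 hours after plating, and gave RNA 3 hours later, while unheated cells were harvested at 23 hours. The groups were KO-labelled unheated cells (3 arrays, numbered 6, 12 and 14 in the labels), KO-labelled preshocked cells (5, 11 and 13), rescue-labelled unheated cells (32 and 44) and rescue-labelled preshocked cells (31 and 43). Each group is a cell line in culture, each sample pooled the lysates of 144 wells, and the making of the rescue line is not described in the labels. Nothing in the labels tells whether the arrays of a group come from independent cultures, and every p-value below rests on the spread between these arrays, which may be technical.

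Collagens are trimeric extracellular proteins whose chains wind around each other in a long helix and which fibroblasts make in large amounts. Fibrillar types I, III and V form the fibrils of connective tissue, type IV forms the network of basement membranes, type VI forms beaded filaments around cells, and types such as XII and XVI sit on fibril surfaces (FACIT collagens). The chains are modified and folded in the endoplasmic reticulum, where the heat-inducible chaperone Serpinh1 (Hsp47) binds them, before export, trimming and crosslinking.

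The deposited intensities had array medians between 50.7 and 73.7 in 8 arrays, and 100.4 and 107.0 in arrays 5 and 6, an adjoining pair of KO-labelled cells that stands apart. Log2 intensities were therefore quantile normalized, and genes were kept when their mean signal ranked in the upper 60%, which left 10915 genes with a mean of at least 5.65 (an intensity of about 50.2) to be tested with limma; a gene was called at a Benjamini-Hochberg adjusted p under 0.05 over all genes tested. Hspa1b, an inducible Hsp70 gene, was measured at 212, 477 and 220.4 in the KO-labelled unheated arrays 6, 12 and 14, and at 19912, 30652 and 31556 in the KO-labelled preshocked arrays 5, 11 and 13. It stood at 675 and 465 in the rescue-labelled unheated arrays 32 and 44, and at 37506 and 24677 in the preshocked arrays 31 and 43. The signal in the KO-labelled arrays was thus as high after preshock as in the rescue-labelled arrays. The knockout label alone would not lead one to expect this. Whether this probe set lies in the deleted part is not given, so the signal does not settle the label, which was not tested. Of 12 fibroblast markers, 11 were among the genes tested (all but Fap). Also tested were 6 of 9 muscle, 4 of 6 neural, 3 of 8 epithelial and 3 of 8 macrophage and leukocyte markers. The remaining lists had 4 of 13 cartilage and bone, 2 of 8 endothelial (Kdr and Esam) and 1 of 5 adipocyte markers tested. Being tested was thus not particular to fibroblast markers, since the filter kept 60% of all genes. The fibroblast list stood above that share and the muscle and neural lists near it. The epithelial, macrophage and leukocyte, cartilage and bone, endothelial and adipocyte lists stood below it.

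Of the 42 collagen chain genes, 20 were bright enough to be tested and 22 were not. The tested genes were 7 of 11 fibrillar chains, 4 of 6 type IV chains, 4 of 7 chains of beaded filaments and anchoring fibrils, 1 of 3 short-chain network chains, 3 of 9 FACIT chains, 1 of 2 multiplexin chains and none of 4 transmembrane chains. The 7 chains counted as beaded filaments and anchoring fibrils include Col26a1, not tested, which is neither a type VI nor a type VII chain. The boundary fell between Col5a3, with a mean log2 signal of 6.00, and Col9a1, with 5.61. The signal of a probe set also depends on its sequence, so levels are compared between arrays and not between genes. In the 10 arrays the probe set of Col1a2, which encodes the second chain of type I collagen, gave intensities from 10930.1 to 16400.4. That of Col5a3 gave 20.9 to 236. Each range is that of its own probe set and does not compare the amounts of the 2 transcripts.

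**Figure D1:**
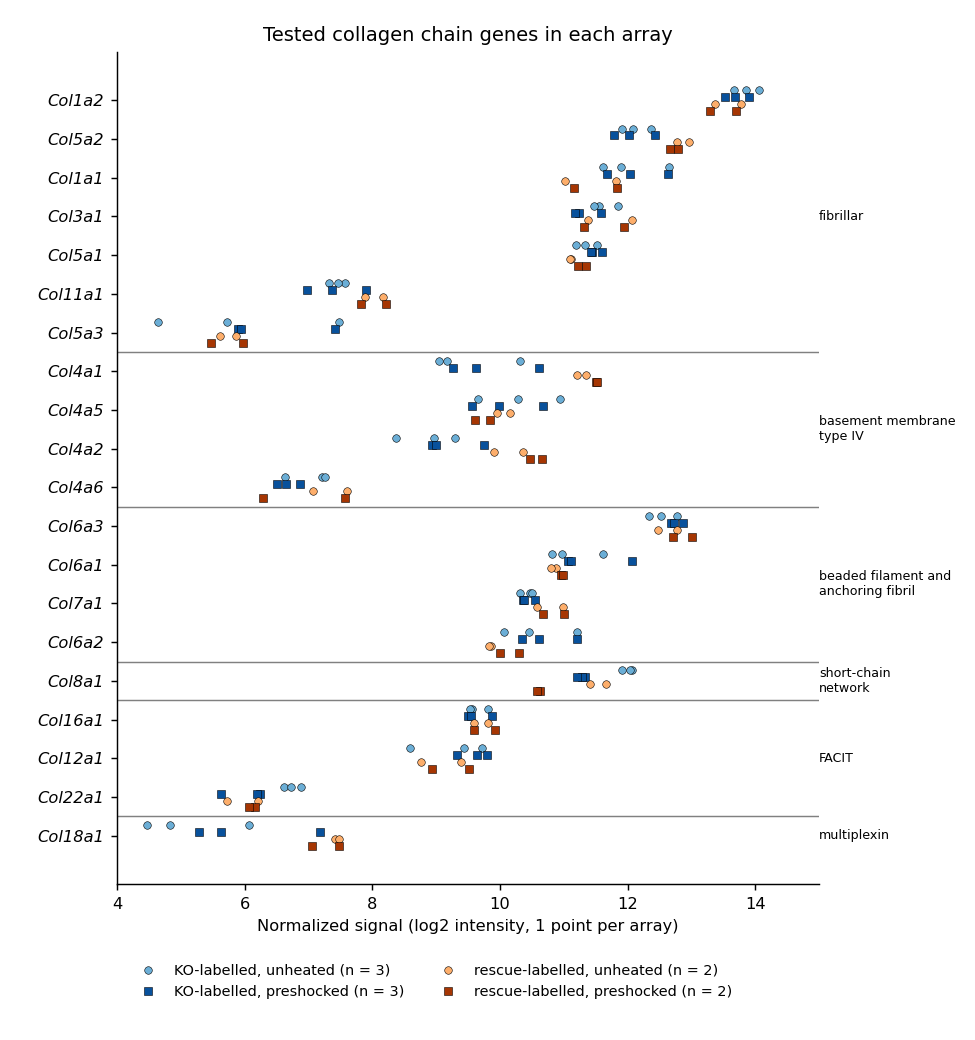
Normalized signal (log2 intensity, horizontal axis) of the 20 tested collagen chain genes (rows, ordered by mean within class), 1 point per array, coloured by group. The points of Col1a2 sit between 13.29 and 14.05, Col8a1 has its 5 preshocked arrays to the left of its 5 unheated arrays, and Col5a3 and Col18a1 have the widest scatter in the KO-labelled arrays.

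The first question of the design is which transcripts change after preshock in each line. Among collagen chain genes, Col8a1 fell in the KO-labelled line and no other tested member passed the test in that line. Col8a1 encodes the alpha 1 chain of type VIII collagen, a short-chain collagen that forms networks in vessel walls and in the membrane beneath the corneal endothelium. Its probe set (1455627_at) gave intensities of 3838, 4233 and 3985 in the KO-labelled unheated arrays 6, 12 and 14. The preshocked arrays 5, 11 and 13 gave 2487, 2523 and 2398. Every preshocked array of the line lay below every unheated array. In the rescue-labelled line the unheated arrays 32 and 44 gave 3319 and 2721, and the preshocked arrays 31 and 43 gave 1562 and 1569, again without overlap. Such a gap was common on the normalized scale. Of 10915 genes tested, 1173 lay lower without overlap in the KO-labelled line and 2439 in the rescue-labelled line. Of the 20 members, 2 did so in each line.

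On the normalized log2 scale the change of Col8a1 after preshock was -0.73 ± 0.12 (SE) in the KO-labelled line, which is 0.603 times the unheated level, with a limma adjusted p of 0.0280. In the rescue-labelled line it was -0.93 ± 0.15, or 0.526 times the unheated level, with a limma adjusted p of 0.0556, above the threshold. With the pair of adjoining array numbers as a block the adjusted p was 0.0176 in the KO-labelled line and 0.0365 in the rescue-labelled line, so that both lines passed. Within the 5 pairs the difference was -0.70 (arrays 5 and 6), -0.78 (11 and 12), -0.70 (13 and 14), -1.03 (31 and 32) and -0.82 (43 and 44). The responses of the lines differed by -0.20 ± 0.20 (rescue minus KO, limma adjusted p = 1.0), and no difference between the lines in the response of Col8a1 passed the test.

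The call of Col8a1 in the KO-labelled line rests on few arrays and on the scaling. The adjusted p rose above 0.05 when any KO-labelled array or either rescue-labelled preshocked array was left out, with values between 0.0564 and 0.116 and changes between -0.78 and -0.70, and it was 0.0857 without arrays 5 and 6. Testing every gene on the array with no filter on dim genes left the change as it was, with an adjusted p of 0.122. Centring each array on its median gave -0.62 with a limma adjusted p of 1.0, and averaging all probe sets of the gene gave -0.48 with 0.629.

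Type VIII collagen had 2 further probe sets for Col8a1, and both were lower after preshock in all 5 pairs. The changes were -0.45 and -0.77 in the KO-labelled and the rescue-labelled line for probe set 1418440_at, and -0.27 and -0.87 for probe set 1418441_at. The groups overlapped in both lines on 1418441_at. On 1418440_at they overlapped in the KO-labelled line, where the unheated arrays 6, 12 and 14 gave 1779, 2347 and 2931 and the preshocked arrays 5, 11 and 13 gave 1457, 1583 and 2049.8. The rescue-labelled groups did not overlap on that probe set, at 2596 and 2142 unheated (arrays 32 and 44) and 1345 and 1395 preshocked (arrays 31 and 43). Col8a2, which encodes the partner chain of type VIII collagen, was below the tested range, at 10.4 to 41.3 in the 10 arrays.

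**Figure D2:**
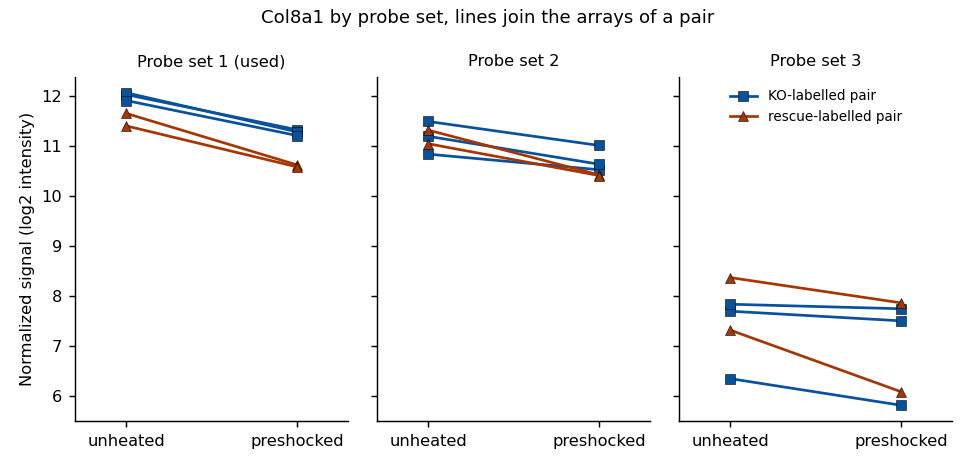
Normalized signal (log2 intensity, vertical axis) of the 3 probe sets of Col8a1 in unheated and preshocked cells, with a line joining the arrays of each of the 5 pairs (3 KO-labelled, 2 rescue-labelled). All 15 lines slope down from unheated to preshocked, with the least scatter between pairs on the probe set used.

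The sequence before the start of Col8a1 is shown because it is the member that passed the test after heat. The window runs from 250 bases before to 50 bases after the start in RefSeq (GRCm38.p6, chr16:57754688-57754987, minus strand), written 5′ to 3′ with matches to GGGCGG, the core of a GC box, in capitals; all 4 matches lie on the opposite strand and read CCGCCC here.
Col8a1: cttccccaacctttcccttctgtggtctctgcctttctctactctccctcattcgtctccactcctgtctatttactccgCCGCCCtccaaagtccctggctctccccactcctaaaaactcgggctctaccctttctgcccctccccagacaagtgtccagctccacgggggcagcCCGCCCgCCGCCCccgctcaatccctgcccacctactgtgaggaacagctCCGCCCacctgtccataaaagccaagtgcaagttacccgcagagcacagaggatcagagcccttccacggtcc
The matches begin at -170, -73, -66 and -23, with the start site counted as 1 and the base before it as -1. The table held 36 windows for 33 of the collagen chain genes, and motifs were searched on both strands. GGGCGG occurred in 22 of these 36 windows and in 35.7% of 32851 windows of all genes. A heat shock element, the site of heat shock factor 1, searched as 3 units (GAA, then TTC, then GAA) spaced by 2 bases, occurred in 0 of the 36 windows and in 0.603% of all. TGANTCA, the AP-1 motif, occurred in 1 window, that of Col6a1, and in 7.81% of all. TATAAA was found in 5 windows (13.6% of all) and CCAAT in 13 (37.4%).

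Among all genes tested, 193 (1.77%) were called after preshock in the KO-labelled line, 90 of them lower (0.825%), against 1 of 20 collagen chain genes, which was lower. At an unadjusted limma p under 0.05 these shares were 12.8% of all genes and 2 of 20 members, Col8a1 and Col22a1. The median log2 change of the 20 members was 0.04 beside -0.04 for all genes, with 12 members above 0 and 8 below, and no member changed by more than 1 on the log2 scale. In the rescue-labelled line 39 of all genes (0.357%) were called and 0 of 20 members by limma, with 1 member at an unadjusted p under 0.05 (8.36% of all genes). With the pair as a block, 9.15% of all genes were called in the KO-labelled line and 1.5% in the rescue-labelled line, and Col8a1 was the member called in each.

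Across the 5 pairs, 5 of the 20 members were lower in every preshocked array than in its unheated partner, and 4 were higher. For all genes tested these shares were 22% and 12.6%. The lower members were Col8a1, Col1a2, Col3a1, Col4a5 and Col4a6, and the higher members were Col4a1, Col4a2, Col6a1 and Col6a3; of these, Col1a2 changed sign in both lines when arrays were centred on their medians.

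**Figure D3:**
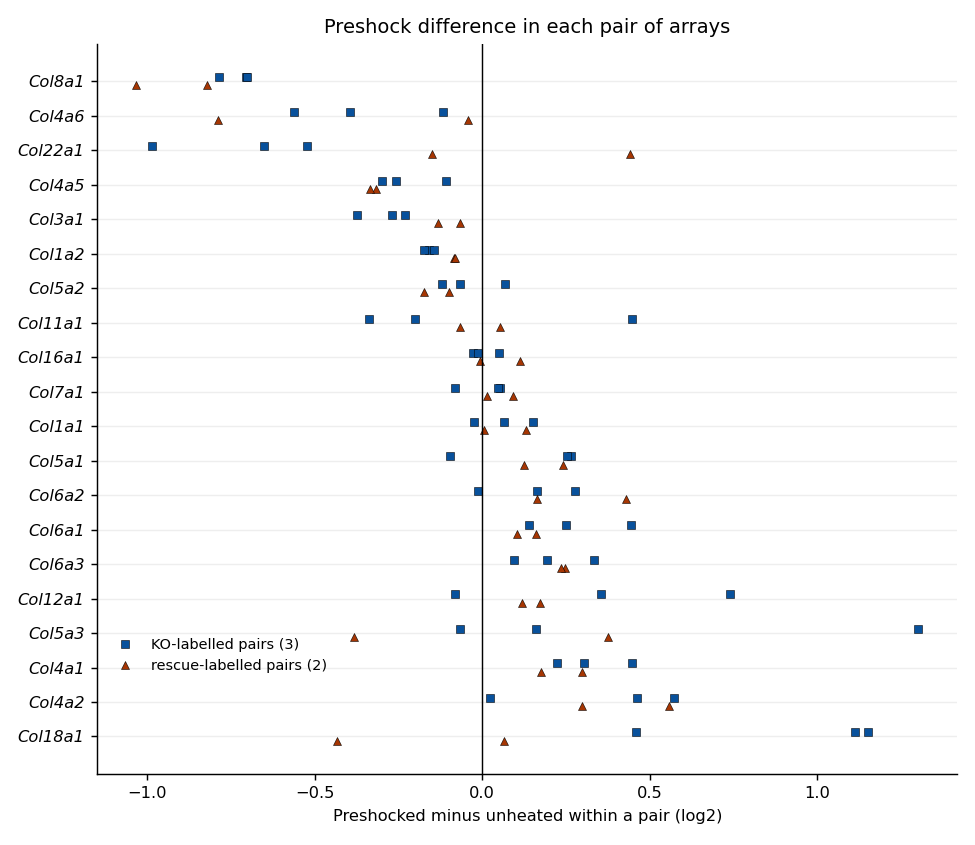
Preshocked minus unheated signal within each pair of arrays (log2, horizontal axis) for the 20 tested collagen chain genes (rows); blue squares are the 3 KO-labelled pairs, brown triangles the 2 rescue-labelled pairs, and the vertical line marks 0. The 5 points of Col8a1 lie between -1.03 and -0.70, the points of most other members lie within 0.5 of 0, and Col5a3, Col18a1 and Col22a1 scatter most.

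Fibrillar collagens are the main product of fibroblasts, and none of their 7 tested chains passed the test after preshock in either line. Changes ran from -0.29 to 0.47 in the KO-labelled line (median -0.03) and from -0.14 to 0.18 in the rescue-labelled line (median -0.01). Col1a1, the first chain of type I collagen, gave 5637, 3769 and 3204 in the KO-labelled unheated arrays 6, 12 and 14 and 5736, 4303 and 3408 in their preshocked partners 5, 11 and 13. Its rescue-labelled values were 2119 and 3557 in the unheated arrays 32 and 44 and 2302 and 3675 in arrays 31 and 43. On the normalized scale the preshocked arrays differed from their own partners by -0.02 to 0.15. The log2 change was 0.06 ± 0.37 in the KO-labelled line (limma adjusted p = 0.999) and 0.07 ± 0.45 in the rescue-labelled line (limma adjusted p = 1.0).

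Col1a2 gave 12712, 11868 and 16400.4 in the KO-labelled unheated arrays 6, 12 and 14, and 12187, 11979 and 15600 in the preshocked arrays 5, 11 and 13. Rescue-labelled cells gave 10930.1 and 13542 in arrays 32 and 44, and 11473 and 13313 in arrays 31 and 43. The groups overlapped, with changes of -0.16 ± 0.19 and -0.08 ± 0.23 (limma adjusted p = 0.938 and 1.0). Col3a1, whose homotrimer is type III collagen, gave 3395, 2819.8 and 3052 in the KO-labelled unheated arrays 6, 12 and 14 and 2921, 2448 and 2332 in arrays 5, 11 and 13. Its rescue-labelled values were 2695 and 4225 in arrays 32 and 44 and 2618 and 3949 in arrays 31 and 43. Each preshocked array lay below its own partner while the groups overlapped, and the changes were -0.29 ± 0.24 and -0.10 ± 0.30 (limma adjusted p = 0.811 and 1.0; 0.0639 with the pair as a block in the KO-labelled line).

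Type V collagen sits inside type I fibrils and sets their width. Col5a1 gave 2457, 2344 and 3002 in the KO-labelled unheated arrays 6, 12 and 14 and 2954, 2838 and 2814 in arrays 5, 11 and 13, with a change of 0.14 ± 0.13 (limma adjusted p = 0.862). Rescue-labelled cells gave 2214 and 2226 unheated and 2419.8 and 2649.8 preshocked, which did not overlap, with a change of 0.18 ± 0.16 (limma adjusted p = 0.984). In that line 1785 of 10915 genes tested likewise lay higher without overlap, and 5 of the 20 members did. Col5a2, a neighbour of Col3a1 in the genome, gave 4752, 3806 and 4520.5 in arrays 6, 12 and 14 and 5072, 3597 and 4452 in arrays 5, 11 and 13, a change of -0.04 ± 0.20 (limma adjusted p = 0.999) whose sign turned when arrays were centred on their medians. Some members with several probe sets gave different values on each. The second probe set of Col5a2 (1450625_at, 149 to 459 in the 10 arrays) gave changes of -1.09 and -0.71 in the 2 lines where the one used gave -0.04 and -0.14. The second probe set of Col1a1 (1455494_at, 125 to 1072) gave -0.58 and -0.86, beside 0.06 and 0.07. Those 2 probe sets were not the brightest of their genes and entered only the alternative that averages all probe sets of a gene.

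Type IV collagen is the network former of basement membranes, and its chains are encoded in head-to-head pairs. None of its 4 tested chains passed the test after preshock. On the probe sets used, Col4a1 and Col4a2 were higher and Col4a5 and Col4a6 lower in every pair of arrays. None of these changes was much larger than its standard error, and the pairs of genes were not compared by a test. Col4a1, the more widely expressed type IV chain with Col4a2, gave 1272, 549 and 560.0 in the KO-labelled unheated arrays 6, 12 and 14 and 1546, 596 and 724 in arrays 5, 11 and 13. Its rescue-labelled values were 2408 and 2615 in the unheated arrays 32 and 44 and 2999 in both preshocked arrays. Each preshocked array was above its partner, and arrays 5 and 6 were far above the other 4 KO-labelled arrays. The log2 change was 0.33 ± 0.41 in the KO-labelled and 0.24 ± 0.50 in the rescue-labelled line (limma adjusted p = 0.951 and 1.0).

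Col4a2 gave 677, 349 and 480.3 in the KO-labelled unheated arrays 6, 12 and 14 and 886, 472 and 449.6 in arrays 5, 11 and 13. Rescue-labelled cells gave 973 and 1369 unheated (arrays 32 and 44) and 1386 and 1654 preshocked (arrays 31 and 43). On the normalized scale each preshocked array was again above its partner, by 0.02 to 0.57, and the changes were 0.35 ± 0.30 and 0.43 ± 0.36 (limma adjusted p = 0.813 and 0.968). Col4a5 and Col4a6, the head-to-head pair on the X chromosome, had lower values in the preshocked array of every pair on the probe sets used. Col4a5 gave 1899, 1259 and 798 in arrays 6, 12 and 14 and 1612, 987 and 689.9 in arrays 5, 11 and 13. Its rescue-labelled values were 1149 and 1043 unheated and 873 and 804 preshocked, and the changes were -0.22 ± 0.36 and -0.32 ± 0.44 (limma adjusted p = 0.980 and 1.0). A second probe set of Col4a5 (1425475_at) gave -0.13 and 0.04. Col4a6 ranged from 62.1 to 211, with changes of -0.36 and -0.42.

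The starts of Col4a1 and Col4a2 are shown because both genes were higher in the same arrays. In RefSeq (GRCm38.p6) the start sites lie 21 bases apart on opposite strands of chromosome 8 and the 2 windows share 78 bases. The window of Col4a1 is chr8:11312777-11313076 on the minus strand and that of Col4a2 is chr8:11312555-11312854 on the plus strand; capitals mark matches to CCAAT and to GGGCGG on either strand.
Col4a1: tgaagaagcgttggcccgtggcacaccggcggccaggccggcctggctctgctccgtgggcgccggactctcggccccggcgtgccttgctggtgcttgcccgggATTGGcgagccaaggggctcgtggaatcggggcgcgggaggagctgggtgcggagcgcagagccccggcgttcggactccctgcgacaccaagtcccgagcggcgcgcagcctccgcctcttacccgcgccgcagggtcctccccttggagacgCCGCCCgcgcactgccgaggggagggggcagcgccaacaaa
Col4a2: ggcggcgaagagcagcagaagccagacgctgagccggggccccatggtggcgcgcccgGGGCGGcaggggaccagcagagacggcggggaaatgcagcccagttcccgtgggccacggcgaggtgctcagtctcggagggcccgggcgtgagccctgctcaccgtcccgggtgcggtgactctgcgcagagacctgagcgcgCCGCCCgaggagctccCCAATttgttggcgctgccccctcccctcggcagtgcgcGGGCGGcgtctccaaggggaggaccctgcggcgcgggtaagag
Each window held CCAAT, beginning at -145 for Col4a1 and at -32 for Col4a2 relative to its own start site. GGGCGG began at 10 in the window of Col4a1 and at -192, -48 and 8 in that of Col4a2. The match at 10 for Col4a1 and the match at 8 for Col4a2 are the same bases of the shared part, read from opposite strands. None of the 3 printed windows held any of the other motifs searched.

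**Figure D4:**
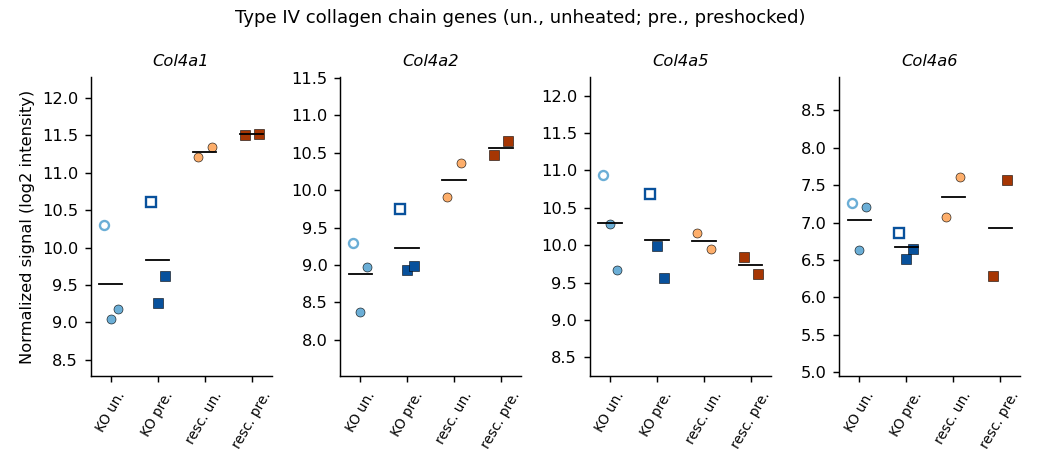
Normalized signal (log2 intensity, vertical axis) of the tested type IV chain genes in the 4 groups, 1 point per array with a black bar at each group mean; open symbols are arrays 5 and 6. For Col4a1 and Col4a2 all 4 rescue-labelled arrays lie above all 6 KO-labelled arrays, and arrays 5 and 6 are the highest of the KO-labelled arrays; Col4a5 and Col4a6 overlap between the lines.

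Type VI collagen is assembled from Col6a1, Col6a2 and Col6a3 chains, and type VII, the anchoring fibril that ties epithelia to the dermis, from Col7a1. The changes of these 4 genes after preshock were all above 0, from 0.01 to 0.28 in the KO-labelled and from 0.05 to 0.30 in the rescue-labelled line, and none passed the test. Col6a1 gave 2930.2, 1812 and 2018 in the KO-labelled unheated arrays 6, 12 and 14 and 4015, 2145 and 2208 in arrays 5, 11 and 13. It gave 1813 and 1920.1 in the rescue-labelled unheated arrays 32 and 44 and 1996 and 2069.5 in arrays 31 and 43. Each preshocked array was above its partner, with changes of 0.28 ± 0.30 and 0.13 ± 0.37 (limma adjusted p = 0.913 and 1.0).

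Col6a2, the neighbour of Col6a1 in the genome, gave 2276, 1089 and 1393 in arrays 6, 12 and 14 and 2286, 1285 and 1540.4 in arrays 5, 11 and 13, a change of 0.14 ± 0.31 (limma adjusted p = 0.998). Col6a2 in rescue-labelled cells gave 923 and 982 unheated and 976 and 1286 preshocked, a change of 0.30 ± 0.38 (limma adjusted p = 1.0). Col6a3 gave 4712, 5695 and 7393 in arrays 6, 12 and 14 and 5883, 6970.1 and 8435 in arrays 5, 11 and 13, a change of 0.21 ± 0.17 (limma adjusted p = 0.792). Its rescue-labelled values were 5795 and 6838 unheated and 7379 and 8381 preshocked, a change of 0.24 ± 0.20 (limma adjusted p = 0.962). Col7a1 stood at 1283 to 1484 in the 6 KO-labelled arrays, with changes of 0.01 ± 0.16 and 0.05 ± 0.20.

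FACIT and multiplexin chains gave no call. Col22a1, a FACIT chain of tissue junctions, gave 174, 117 and 85.4 in the KO-labelled unheated arrays 6, 12 and 14 and 116, 74.8 and 43.2 in arrays 5, 11 and 13. Its rescue-labelled values were 40.8 and 63.2 unheated (arrays 32 and 44) and 56.9 and 55.2 preshocked (arrays 31 and 43). On the normalized scale the KO-labelled groups did not overlap, with a change of -0.72 ± 0.21 (limma adjusted p = 0.153), and the rescue-labelled groups did, with 0.15 ± 0.25 (limma adjusted p = 1.0). In the KO-labelled line 1173 of 10915 genes tested likewise lay lower without overlap. The difference between the lines' responses was 0.87 ± 0.33, the only one of the 20 members at an unadjusted limma p under 0.05, and its adjusted p was 1.0. Across all genes 0 differences of response (0%) passed limma's adjusted threshold, with 0.944% at an unadjusted p under 0.05, and 0 of 20 members passed.

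Col16a1, which lies on fibril surfaces, gave 939, 762 and 740.2 in arrays 6, 12 and 14 and 954, 707 and 683 in arrays 5, 11 and 13, a change of 0.00 ± 0.17 (limma adjusted p = 0.999). Col12a1, a FACIT chain made where tissue bears tension, gave 441, 866 and 679.8 in arrays 6, 12 and 14 and 674, 773 and 821 in arrays 5, 11 and 13, a change of 0.34 ± 0.32 (limma adjusted p = 0.870). Col18a1, whose C-terminal fragment is endostatin, gave 111, 27.6 and 23.9 in arrays 6, 12 and 14 and 189, 50.7 and 34.3 in arrays 5, 11 and 13. All 3 KO-labelled pairs were higher after preshock, by 0.46 to 1.15, with a change of 0.91 ± 0.54 (limma adjusted p = 0.613; 0.0511 with the pair as a block). In the rescue-labelled line Col18a1 gave 166 and 168 unheated and 111 and 165 preshocked, a change of -0.18 ± 0.66 (limma adjusted p = 1.0).

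The second question is how the lines differ without and with heat. Col18a1, Col4a1 and Col4a2 had the largest differences among the 20 tested members in both comparisons, each higher in the rescue-labelled line, but no collagen chain gene passed the test in either comparison. In unheated cells 46 of all genes (0.421%) and 0 of 20 members were called by limma, with 12.9% of all genes and 6 of 20 members at an unadjusted p under 0.05. In preshocked cells 37 of all genes (0.339%) and 0 of 20 members were called, with 14.1% and 5 of 20 at an unadjusted p under 0.05. The median difference of the members (rescue minus KO) was -0.05 unheated and 0.10 preshocked, beside -0.02 and -0.01 for all genes. Centring arrays on their medians moved the median of all genes to 0.50 and 0.42, and with it the sign of Col12a1, Col1a2, Col4a5, Col5a1 and Col6a1 in both comparisons and of Col8a1 in unheated cells.

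Col4a1 was higher in the rescue-labelled line by 1.77 ± 0.46 unheated (3.41 times the KO-labelled level) and by 1.68 ± 0.46 preshocked (3.20 times), with limma adjusted p of 0.172 and 0.183. Col4a2 was higher by 1.26 ± 0.33 and 1.33 ± 0.33 (limma adjusted p = 0.183 and 0.159). All 4 rescue-labelled arrays lay above all 6 KO-labelled arrays for these 2 genes and for Col5a2 and Col7a1, 4 of 20 members against 5.69% of all genes; 0 of 20 members and 5.45% of all genes lay below. The second probe set of Col4a1 (1426348_at) was also higher in the rescue-labelled line, by 0.94 and 1.25, though KO-labelled array 6 (924) lay above rescue-labelled array 32 (728) there. Col4a5 and Col4a6 differed by -0.24 and 0.31 in unheated cells and by -0.34 and 0.25 in preshocked cells, while the second probe set of Col4a5 gave 0.16 and 0.33.

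The KO-labelled pair of arrays 5 and 6 bore on these values. Without it Col4a1 differed by 2.17 and 2.07 (limma adjusted p = 0.00884 and 0.0105) and Col18a1 by 2.80 and 1.81 (0.00884 and 0.0331), so that 2 members passed in each comparison. Of all 10915 genes, 85 passed unheated and 58 preshocked in that fit. Leaving the pair out was chosen after seeing the data. Arrays 5 and 6 held the highest KO-labelled values of both genes, so their removal necessarily widened these differences. With all arrays Col18a1 differed by 2.33 ± 0.60 unheated (limma adjusted p = 0.174) and 1.24 ± 0.60 preshocked (0.398). Centring on the median brought Col4a1 past the threshold in both comparisons, at 2.32 (limma adjusted p = 0.0128) and 2.25 (0.0203), with all genes shifted as given above. What set arrays 5 and 6 apart was not tested.

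Col5a2 was higher in the rescue-labelled line by 0.75 ± 0.22 unheated and 0.65 ± 0.22 preshocked (limma adjusted p = 0.222 and 0.260), with rescue-labelled arrays at 7106 to 7719 against 3597 to 5072. Its neighbour Col3a1 differed by 0.10 and 0.29 (limma adjusted p = 0.901 and 0.667) with overlap. Col1a1 differed by -0.63 ± 0.41 and -0.62 ± 0.41 (limma adjusted p = 0.544 and 0.530), and its arrays overlapped; its second probe set (1455494_at) gave -1.70 and -1.97. Col8a1 differed by -0.48 ± 0.14 unheated, a sign that turned with median centring, and by -0.67 ± 0.14 preshocked (limma adjusted p = 0.222 and 0.101). The other probe sets of Col8a1 did not share this difference, with 0.01 and -0.31 on 1418440_at and 0.55 and -0.05 on 1418441_at. Col6a2 differed by -0.73 and -0.58, Col7a1 by 0.36 and 0.41, Col11a1 by 0.58 and 0.60, and Col22a1 by -0.78 and 0.09; their adjusted p lay above 0.05 in each comparison.

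Markers of other cell types were read beside these differences. Between the lines, 0.421% of all genes tested were called in unheated and 0.339% in preshocked cells. Among the 6 tested muscle markers, 1 was higher in the rescue-labelled line unheated and 2 preshocked, and the others were lower. Of 6 tested muscle markers out of 9, Acta1 was called lower in the rescue-labelled line (-1.41 and -1.60, limma adjusted p = 0.0346 and 0.0335; 0.117 and 0.0833 with the pair as a block; 0.128 and 0.103 with no filter; 0.249 and 0.219 with median centring), and the summed intensity of the list was 6927 to 16235 in KO-labelled arrays and 7805 to 11993 in rescue-labelled arrays. The endothelial list, relevant to type IV, VIII and XVIII chains, summed to 88.1 to 609 in KO-labelled and 172 to 296 in rescue-labelled arrays, with Pecam1, Cdh5, Tek, Tie1, Vwf and Cldn5 below the tested range. The sums of the neural list did not overlap, at 681 to 1005 in KO-labelled and 408 to 484 in rescue-labelled arrays. Of its 4 tested markers 0 were called, and 2 were higher in the rescue-labelled line unheated and 1 preshocked. The sums of the other marker lists overlapped between the lines. The part of these cells in the collagen differences was not tested. In such bulk samples fewer cells of a type and less RNA per cell cannot be told apart.

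The 22 members below the tested range had mean log2 signals from 2.05 to 5.61, and 21 of them were under an intensity of 200 in every array. Their single values ran from 0.447 to 297, with 4 of 220 values below 1. They include chains known from cartilage (Col2a1, Col9a1, Col9a2, Col9a3, Col10a1 and Col11a2), the kidney and lung type IV chains Col4a3 and Col4a4, and the 4 transmembrane chains Col13a1, Col17a1, Col23a1 and Col25a1. Col9a1, just outside the tested range, gave 297 and 262 in arrays 6 and 5 and between 4.91 and 64.5 in the other 8 arrays. Col25a1 was likewise highest in array 6, at 162, and Col13a1 at 100 in array 6, with 0.96 in rescue-labelled array 44. Col15a1, a multiplexin, ranged from 1.81 to 88.4. These 22 members were left out of the main test, so no difference between groups is claimed for them. Their low signal does not show that these genes are silent.

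**Figure D5:**
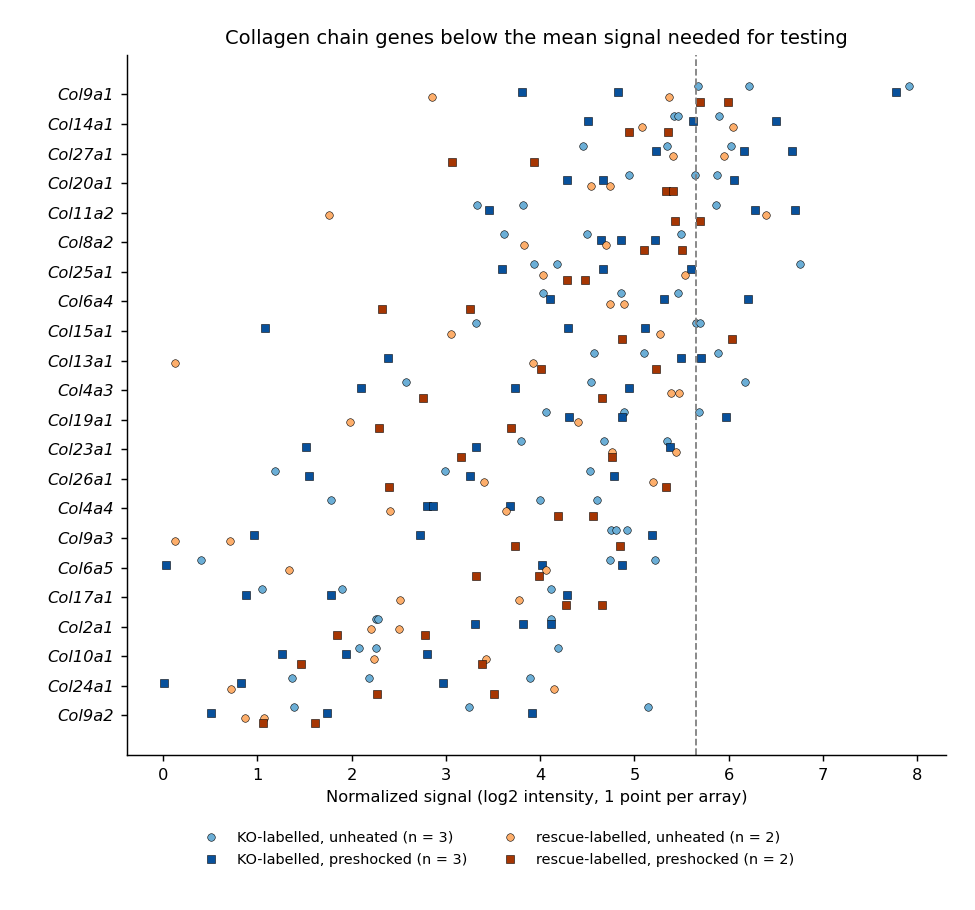
Normalized signal (log2 intensity, horizontal axis) of the 22 collagen chain genes below the tested range (rows), 1 point per array, coloured by group; the dashed line marks a mean of 5.65, the lowest mean of a tested gene. Gene means lie between 2.05 and 5.61, and points of 1 gene scatter over several log2 units.

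Genes that act on collagen were taken from lists of folding and modification, export and cleavage, crosslinking and fibril partners, receptors, and regulators of transcription. Of 18 tested folding and modification genes, 11 export and cleavage genes, 16 crosslinking genes and partners and 9 receptors, 0 were called by limma in any of the 5 comparisons. At an unadjusted limma p under 0.05 these 4 lists, 54 genes in all, held 1 gene in the KO-labelled and 1 in the rescue-labelled preshock comparison. The shares of all genes there were 12.8% and 8.36%. The difference of responses had 0 of the 54 genes, beside 0.944% of all genes. The comparisons of unheated and of preshocked lines had 9 and 12, beside 12.9% and 14.1% of all genes. With the pair as a block 2 of the 54 genes were called after preshock in the KO-labelled line, beside 9.15% of all genes. They were P4ha1, a prolyl hydroxylase, which was higher (0.36, adjusted p = 0.0486), and Thbs1, a matrix glycoprotein, which was lower (-0.44, adjusted p = 0.0347). Lox, which crosslinks collagen, came nearest to a call between the lines, at -0.92 ± 0.15 unheated and -0.81 ± 0.15 preshocked (rescue minus KO, limma adjusted p = 0.0540 and 0.0821). These 3 genes were named after their values were seen. Serpinh1, the collagen chaperone Hsp47, gave 9010.4, 8698 and 7623 in the KO-labelled unheated arrays 6, 12 and 14 and 10575, 11520.4 and 11234 in arrays 5, 11 and 13. Serpinh1 in rescue-labelled cells gave 6334 and 8645 unheated (arrays 32 and 44) and 8758 and 11018 preshocked (arrays 31 and 43). Every preshocked array was above its own partner, with changes of 0.30 ± 0.23 and 0.31 ± 0.28 (limma adjusted p = 0.777 and 0.999; 0.0721 and 0.138 with the pair as a block).

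Of 23 tested regulators of collagen transcription, Sox9 and Smad7 rose and Rfx5 fell after preshock in the KO-labelled line, and Sox9 rose in the rescue-labelled line; with the pair as a block 4 rose and 4 fell in the KO-labelled line. Over all genes tested the shares called in that line were 1.77% by limma and 9.15% with the block. Sox9, the activator of the cartilage chain gene Col2a1, gave 292, 353 and 381 in arrays 6, 12 and 14 and 1195, 1300.1 and 1239 in arrays 5, 11 and 13, and the rescue-labelled values were 383 and 218 unheated and 1445 and 1440.6 preshocked. The change was 2.00 ± 0.26 and 2.32 ± 0.31 (limma adjusted p = 0.0104 and 0.0230). Col2a1 itself stayed between 2.78 and 29.3. The summed intensity of 13 cartilage and bone markers, Sox9 among them, was 1046 to 1691 in KO-labelled unheated and 1998 to 2489 in preshocked arrays. This sum largely repeats Sox9, whose mean went from 342 to 1245 in these arrays, and is no separate sign of a rise. Of the 4 markers of the list that were tested, Sox9 was the only 1 called. Smad7, an inhibitor of TGF-beta signalling, changed by 1.82 ± 0.28 in the KO-labelled line (limma adjusted p = 0.0212) and by 1.27 ± 0.35 in the rescue-labelled line (0.267). Rfx5, a factor known to repress Col1a2, changed by -1.21 ± 0.18 (limma adjusted p = 0.0170) and -0.55 ± 0.22 (0.520). Each of these calls ended under some alternatives: with no filter on dim genes the adjusted p in the KO-labelled line was 0.0550 for Sox9, 0.0852 for Smad7 and 0.0798 for Rfx5, and without array 11 it was 0.0561, 0.0724 and 0.0759. Median centring gave 0.0826 for Sox9 and 0.283 for Rfx5, and the mean of all probe sets gave 0.102 for Sox9 and 0.272 for Smad7. Without single KO-labelled unheated arrays (14 or 12) Smad7 had 0.0812 and 0.0783 and Rfx5 had 0.0691 and 0.0567, and without arrays 5 and 6 Rfx5 had 0.0814. The call of Sox9 in the rescue-labelled line ended without any 1 of 6 arrays, with adjusted p between 0.0519 and 0.180, and it was 0.177 with median centring, 0.115 with no filter and 0.320 with the mean of all its probe sets (1.51). The difference between the lines was not called for any of these 3 genes (limma adjusted p = 1.0 each), and the part of these regulators in collagen transcription was not tested.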

How the data were processed

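The authors deposited, for each array, an unlogged intensity for each of 45101 probe sets; summarisation software and genome build were not found in the labels. Per the labels' protocols, biotin-labelled target was made from 1.5 µg of total RNA in 1 cycle. When the lowest and highest 2% of values were dropped, the mean was 500.003 or 500.004 in every array, so the arrays had been scaled to 1 target. Values below 1 (4935) were set to 1, and log2 values were quantile normalized because array medians differed by up to 1.08, over the tolerance of 0.2. The 64 control probe sets, 932 probe sets with several gene symbols and 9160 with none were left out, and 34945 had 1 symbol. Signal over background is not known, and precision is limited by how many arrays there are.

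A limma model (version 3.58.1, R 4.3.3, statmod 1.5.0) with 1 mean per group over all 10 arrays gave 5 comparisons: preshocked minus unheated within either line, the rescue response minus the KO response, and rescue minus KO in unheated and in preshocked cells. Errors of log2 differences are its standard errors. The code was tested on simulated data. The members and gene lists were chosen with earlier results of these data known. Values are given for members that were called, the 12 with the highest mean signal, the first 2 of each class, members at a shared locus, and called list genes with Serpinh1; the others are described by level or range, and those named beyond this were chosen after their values were seen. By limma the marker lists other than the muscle list had 0 members called, except Sox9, which the cartilage list shares with the regulators.

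Array numbers in the labels adjoin between a preshocked and an unheated array of the same line. Over 10915 genes the deviations of such arrays from their group means correlated at 0.721, 0.376, 0.552, 0.370 and 0.370, so the numbers were taken to pair the arrays. In the rescue-labelled line, where groups have 2 arrays, both pairs necessarily give the same correlation. The pair as a block (fixed within a line, random between lines, consensus correlation 0.716) was an alternative. The others were median centring, no filter on dim genes, a floor of 32, the mean of all probe sets, robust moderation and leaving out each array; leaving out arrays 5 and 6 together was chosen after seeing the data. Promoter windows came from RefSeq's table (GRCm38.p6), which held 33 of the 42 members.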

Additional observations from a re-analysis of the deposited data

How the results depend on the processing

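The count of collagen chain genes called after preshock in the KO-labelled line, 1 in the limma fit, was 0 with arrays centred on their median, with no filter on dim genes, with the mean of all probe sets and without arrays 5 and 6, and 0 to 1 when single arrays were left out. In the rescue-labelled line it went from 0 to 1 with the pair as a replicate block. Between the lines it went from 0 to 1 with median centring and from 0 to 2 without arrays 5 and 6, in unheated and in preshocked cells alike. The difference of responses had 0 members called under every alternative run. No called value changed sign, and the block changed no other call of a member. The cause of these changes was not tested.

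Counts over all genes moved more. The 193 genes called in the KO-labelled line became 28 with median centring, 28 with no filter, 101 with the mean of all probe sets, 999 with the pair block, 112 without arrays 5 and 6, and 42 to 139 without single arrays. The 39 of the rescue-labelled line became 7, 10, 28, 164 and 78 in the same order, and 10 to 56. The 46 of the unheated lines became 32, 10, 20, 22 and 85, and 3 to 43. The 37 of the preshocked lines became 22, 6, 9, 16 and 58, 67 with a floor of 32, and 0 to 37. Median centring moved the share of higher genes among those called from 53.4% to 89.3%, from 76.9% to 100%, from 26.1% to 59.4% and from 29.7% to 68.2% in these 4 comparisons. In fits that left a group with 1 array, that array was assumed to vary like the others.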

Other observations

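Several collagen chain genes had a further probe set above the lowest tested mean, which entered only the alternative that averages all probe sets of a gene. For Col18a1 the second probe set (1418237_s_at, 30.9 to 172 in the 10 arrays) was higher in the rescue-labelled line by 1.08 unheated and 0.77 preshocked (log2), where the one used gave 2.33 and 1.24. For Col6a2 the second probe set (1426947_x_at) gave -1.09 and -0.64 for the same comparisons, beside -0.73 and -0.58. For Col4a6 the second probe set (1421007_at) changed by -0.34 and -0.64 after preshock in the KO-labelled and the rescue-labelled line, beside -0.36 and -0.42. For Col3a1 the second probe set (1427884_at) gave -0.86 and -0.17, beside -0.29 and -0.10. The third probe set of Col1a2 (1446326_at, 66.5 to 113.7) gave -0.02 and -0.28, and its second (1423110_at) gave -0.43 and -0.39. The second probe set of Col4a5 (1425475_at) differed between the lines by 0.16 and 0.33, beside -0.24 and -0.34 on the one used. For Col5a1 (1434479_at and 1416741_at) the changes after preshock were 0.49 and 0.56 on the second and 0.28 and 0.41 on the third probe set, beside 0.14 and 0.18. For Col12a1 the second probe set (1427391_a_at) gave -0.03 and 0.15, beside 0.34 and 0.15, and for Col11a1 (1449154_at) 0.22 and -0.05, beside -0.03 and -0.01. These values are given as measured and were not tested singly.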
